A study of Mus musculus with 6 samples.

Results

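The carbonic anhydrase genes of the mouse were followed in whole uteri that had lost or kept Sox17, the gene of a SOX family transcription factor. The list held 10 genes, Car2, Car3, Car4, Car5b, Car7, Car8, Car9, Car12, Car13 and Car14. Their 12 probes were found through the RefSeq accessions of the array design, and all 10 genes had a probe among the 20145 genes matched. The members were selected on genotype differences already measured on these 6 arrays, so the differences given for them are a description. Of the 10 genes, 9 passed the filter on low signal and were among the 14847 genes tested, and Car8 was not. RNA came from uteri of natural pregnancy at gestation day (GD) 3.5, taken from females mated at 8 to 10 weeks of age and with the embryos flushed out. The 3 Sox17f/f mice, whose genotype the labels also give as WT, carried the floxed Sox17 allele and no recombinase. The 3 Sox17ed/ed mice carried the same floxed allele together with LtfiCre, an iCre recombinase driven by the Ltf gene, which is active in the uterine epithelium from puberty on. The controls lacked the iCre allele, so the loss of Sox17 and the carriage of iCre cannot be told apart. Each mouse gave 1 array, read in 1 colour.

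Carbonic anhydrases are zinc enzymes that interconvert carbon dioxide and water with bicarbonate and a proton. They are set apart by where they work: CAR2, CAR3, CAR7 and CAR13 in the cytosol, CAR5B in mitochondria, and CAR4, CAR9, CAR12 and CAR14 at the cell surface with the catalytic domain outside, whereas CAR8 is a carbonic anhydrase-related protein that lacks the activity. In the uterus the lining and gland epithelium can secrete a fluid rich in bicarbonate, and carbonic anhydrases work there beside bicarbonate, chloride and proton transporters.

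The RefSeq promoter windows of GRCm38.p6 held entries for 6 of the 10 genes, Car4, Car5b, Car7, Car9, Car12 and Car14. The 250 bases before the start are shown for the 3 genes whose array signal passed both thresholds given below, with every match to 3 short motifs in capitals. The motifs, each searched on both strands, were the SOX core, a SOX factor motif spelled ACAAT or, on the other strand, ATTGT, the repeat unit of the oestrogen response element, spelled TGACC or, on the other strand, GGTCA, and the core of the hypoxia response element, spelled ACGTG or, on the other strand, CACGT. The window of Car12 lies at chr9:66713436-66713685 on the plus strand, that of Car9 at chr4:43506776-43507025 on the plus strand and that of Car5b at chrX:164028011-164028260 on the minus strand.
Car12: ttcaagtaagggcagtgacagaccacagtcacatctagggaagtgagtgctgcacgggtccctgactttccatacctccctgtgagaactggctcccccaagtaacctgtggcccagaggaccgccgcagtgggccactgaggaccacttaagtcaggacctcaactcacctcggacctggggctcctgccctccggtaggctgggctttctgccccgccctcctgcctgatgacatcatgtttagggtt
Car9: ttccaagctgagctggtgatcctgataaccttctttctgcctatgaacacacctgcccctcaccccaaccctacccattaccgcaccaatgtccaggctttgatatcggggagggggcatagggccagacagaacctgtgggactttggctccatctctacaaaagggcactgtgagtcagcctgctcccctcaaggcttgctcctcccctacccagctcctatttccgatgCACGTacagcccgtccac
Car5b: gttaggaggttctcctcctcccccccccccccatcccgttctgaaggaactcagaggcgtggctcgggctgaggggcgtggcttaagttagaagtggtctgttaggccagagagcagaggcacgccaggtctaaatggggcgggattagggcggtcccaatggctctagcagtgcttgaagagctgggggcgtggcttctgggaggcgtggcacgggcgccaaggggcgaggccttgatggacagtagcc
The only capitals mark the hypoxia core of Car9, which begins 18 bases before the start. The letters of the SOX core were in none of the windows of the 6 genes, and they were in 27.7% of all 32851 windows of this length. The hypoxia core was also found in Car14, beginning 7 bases before the start, against 16.6% of all windows. The oestrogen motif was found in Car4, Car14 and 1 of the 3 windows of Car7, against 35.2% of all windows. All 6 genes were among those tested, and shares for tested genes were taken only over the full windows of 300 bases. There the SOX core was in 21.7% of the windows of tested genes against 31% of all. The hypoxia core was in 23.9% against 19.6%, and the oestrogen motif in 38.7% against 40.5%. A match gives the letters only, and the absence of one says only that these letters are not in the 250 bases.

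Leaving controls aside, the share of spots well above background was 60.7% to 65.7% in Sox17f/f and 56.8% to 59.4% in Sox17ed/ed uteri, with 0 saturated. All arrays shared 1 slide, in lines that held 1 genotype each, so the place on the slide and the genotype cannot be told apart. Sox17 itself had a normalized log2 signal of 12.17 ± 0.09 (SD, n = 3) in Sox17f/f and 9.72 ± 0.11 (SD, n = 3) in Sox17ed/ed uteri. Markers of epithelium, stroma and smooth muscle were present on all arrays. All 8 gland markers tested were lower in Sox17ed/ed uteri. Their summed signal fell from between 34700 and 55500 to between 216 and 314. Without its brightest gene the sum fell from between 12300 and 21900 to between 204 and 294. The paper names Foxa2, Lif, Prss28, Prss29 and Spink3 among the genes changed on these arrays, so their change was known beforehand. Probes of Prss29, Ttr and Lif passed the filter through the Sox17f/f arrays alone, with 0 Sox17ed/ed arrays well above background. The size of their fall is therefore not known. The summed signal of 14 epithelium markers lay between 57600 and 60900 in Sox17f/f and between 58200 and 71900 in Sox17ed/ed uteri.

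Car12 was lower, and Car9 and Car5b were higher, in the uteri without epithelial Sox17. A gene counted as called where its unadjusted limma p was under 0.01 and its fold change at least 1.4. These 3 genes made up 33.3% of the 9 members tested, against 12.5% of all genes tested, and no weight is given to that share since these same values were known when the list was drawn up. Called higher were 2 of 9, against 6.04% of all genes, and called lower was 1 of 9, against 6.47%. With the adjusted p under 0.05 alone, 5 of the 9 passed, 3 of them higher and 2 lower, against 18.9% of all genes. The 3 arrays of one genotype lay wholly above or below the 3 of the other for 8 of the 9, all but Car14, against 40.3% of all genes. The median log2 fold change of the 9 was 0.16, and 5 were above and 4 below zero. The called members did not share a direction.

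**Figure D1:**
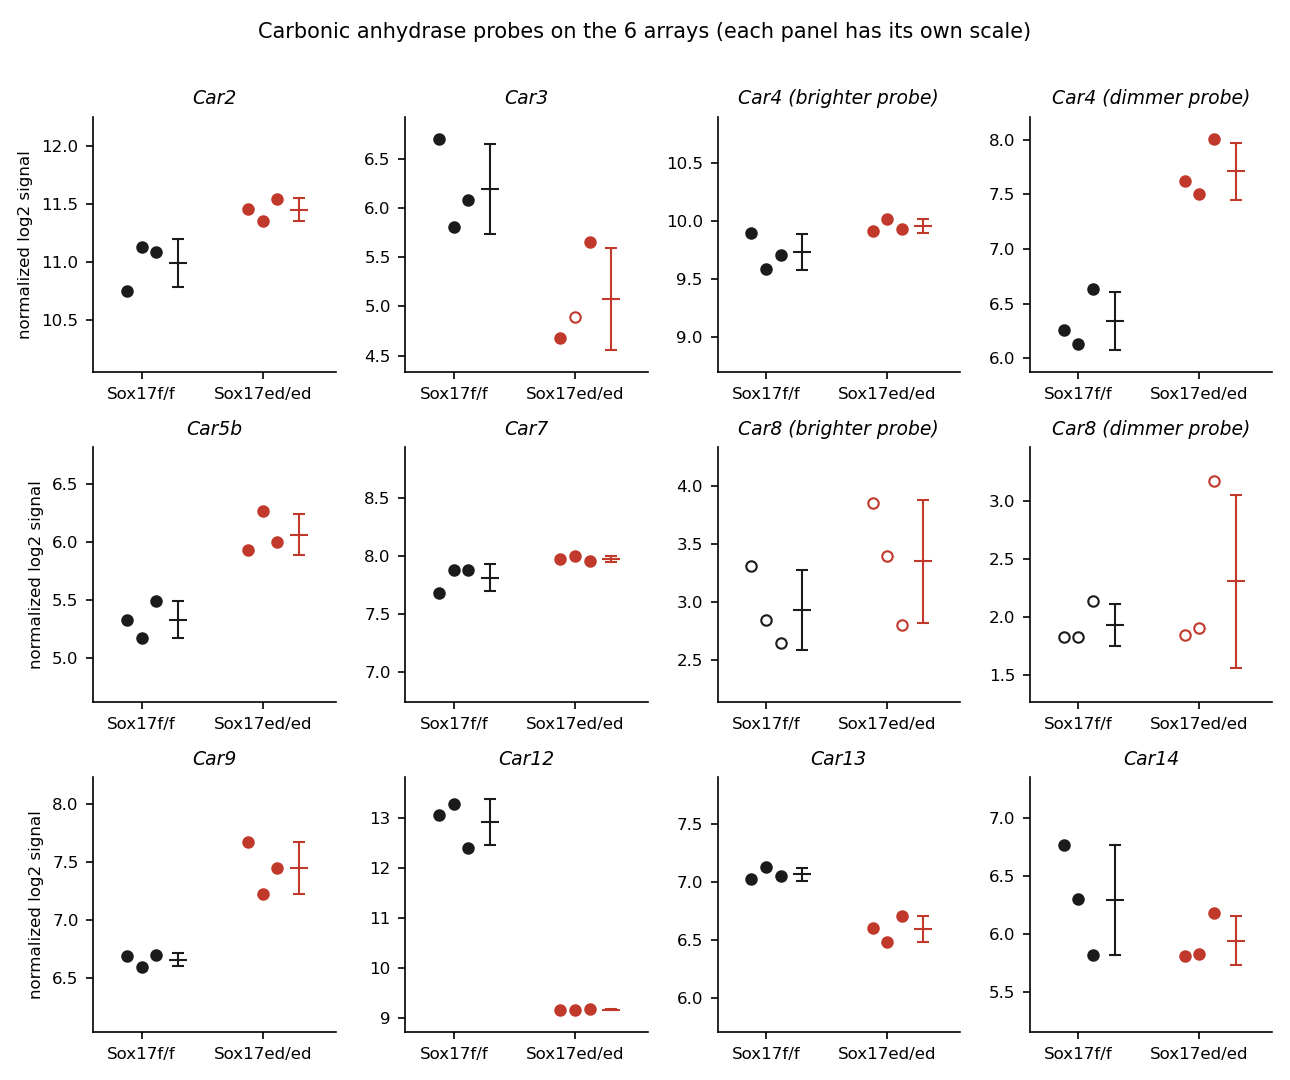
Normalized log2 signal of the 12 probes of the 10 carbonic anhydrase genes on each array, with the scale of each panel its own; points are arrays (3 Sox17f/f in black, 3 Sox17ed/ed in red), open points were not well above background, and the bar is the mean with its SD. The Car12 arrays of Sox17ed/ed uteri sit near 9.17, below every Sox17f/f array, while Car9, Car5b and the dimmer Car4 probe sit higher in Sox17ed/ed uteri.

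Car12, a surface enzyme of secretory epithelia whose catalytic domain faces the outside of the cell, had the largest difference of the members. Its normalized log2 signal was 13.05, 13.27 and 12.39 on the Sox17f/f arrays and 9.17, 9.16 and 9.19 on the Sox17ed/ed arrays. The groups lay far apart, the Sox17f/f arrays differed among themselves, with replicate 3 the lowest, and the Sox17ed/ed arrays were nearly equal. The mean was 12.90 ± 0.46 (SD, n = 3) in Sox17f/f and 9.17 ± 0.01 (SD, n = 3) in Sox17ed/ed uteri. The difference was -3.73 on the log2 scale (standard error 0.22, 95% interval -4.26 to -3.20), or 13.3-fold lower. Before normalization the processed signal was 8450, 10700 and 5730 on the Sox17f/f arrays against 581, 535 and 589 on the Sox17ed/ed arrays. Car12 was well above background on all 6 arrays, so a signal was still measured in Sox17ed/ed uteri. In RNA of a whole organ, fewer cells of a type and less RNA in each cell cannot be told apart. The paper reports fewer glands in Sox17d/d mice, a genotype not on these arrays, than in Sox17ed/ed or Sox17f/f mice. After loss of Sox17 past puberty it describes altered gland function, and no drop in gland number in mice older than those on these arrays. The gland markers were lower in Sox17ed/ed uteri as Car12 was. Among the controls their summed signal was 55500, 48900 and 34700 on Sox17f/f replicates 1, 2 and 3. Replicate 3 was the lowest for Car12 and for this sum, while replicates 1 and 2 came in the opposite order. Replicate 3 was also lowest for the epithelium markers (60200, 60900 and 57600) and the HIF target genes described below (163000, 171000 and 155000). Both of those sums had the order of Car12. For the stroma markers replicate 3 was highest (321000, 320000 and 325000). A low replicate 3 was therefore not particular to the gland list. The part of the glands in the Car12 result was not tested.

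Car9, a surface enzyme known as a target of the hypoxia-inducible factor HIF-1, had the largest value above zero when each gene was read from its brightest probe, although the dimmer Car4 probe described below was higher. Its normalized log2 signal was 6.69, 6.59 and 6.70 on the Sox17f/f arrays and 7.67, 7.23 and 7.45 on the Sox17ed/ed arrays. Every Sox17ed/ed array lay above every Sox17f/f array, and the Sox17ed/ed arrays spread more. The log2 fold change was 0.79 (standard error 0.12, 95% interval 0.50 to 1.08), or 1.73-fold.

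Car5b encodes the mitochondrial enzyme that supplies bicarbonate to carboxylases in many tissues. Its normalized log2 signal was 5.32, 5.17 and 5.49 in Sox17f/f and 5.93, 6.27 and 6.0 in Sox17ed/ed uteri. The groups did not overlap, and the log2 fold change was 0.73 (standard error 0.12, 95% interval 0.43 to 1.04), or 1.66-fold. The probe was dim, with a processed signal of 35.3 to 51.9 on the Sox17f/f arrays and 62.0 to 72.9 on the Sox17ed/ed arrays, where the lowest signal well above background was between 13.1 and 18. With normexp background correction the log2 fold change of Car5b was 0.29, which did not pass the thresholds. The signal of Car5a, the other mitochondrial gene, did not stand well above background in either genotype.

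Car4, an enzyme held at the cell surface by a lipid anchor and known from capillaries and absorptive epithelia, was measured by a pair of probes that differed in size. The brighter probe, which stands for the gene, read 9.90, 9.59 and 9.71 in Sox17f/f and 9.92, 10.02 and 9.94 in Sox17ed/ed uteri. These groups lay just apart, by 0.23 on the log2 scale (standard error 0.10, 95% interval -0.005 to 0.46), and the probe was not called. The dimmer probe read 6.26, 6.13 and 6.64 in Sox17f/f and 7.62, 7.50 and 8.01 in Sox17ed/ed uteri. Its log2 fold change was 1.37 (standard error 0.19, 95% interval 0.91 to 1.83), past both thresholds at the level of probes. At that level 9.85% of the 32735 probes tested were called. With normexp background correction the dimmer probe was at 0.80 and the brighter one at 0.19. Both probes carry the same accession and both differences were above zero, but the intervals of their differences do not overlap. Car4 was therefore called or not called by the choice of probe, and with the mean of its probes the log2 fold change was 0.80. The summed signal of 12 endothelium markers was between 75600 and 80600 in Sox17f/f and between 57400 and 63100 in Sox17ed/ed uteri. Of the 12, 2 were called lower and 1 higher, 25% against 12.5% of all genes tested. The log2 fold changes of 11 of the 12 were below zero, with a median of -0.36. The part of the vessels in the Car4 values was not tested.

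**Figure D2:**
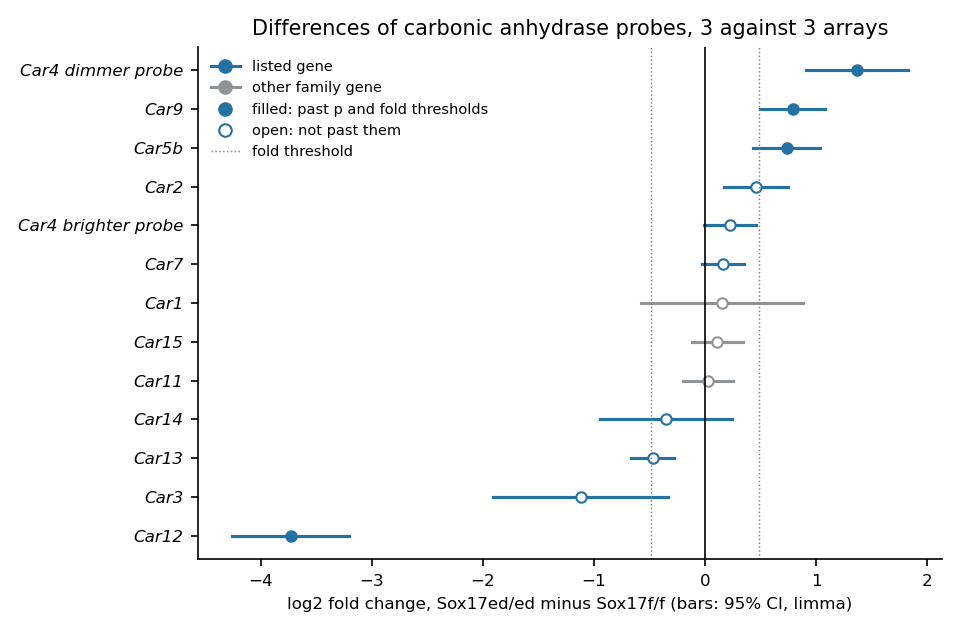
Log2 fold change of each carbonic anhydrase probe that passed the filter, Sox17ed/ed minus Sox17f/f (3 arrays against 3), with its 95% interval from limma; blue marks the listed genes, grey the other family genes, filled points passed both thresholds, and dotted lines mark the fold threshold. Car12 lies at -3.73, far below the rest, and the dimmer Car4 probe at 1.37 lies above the brighter one at 0.23.

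Car2, Car3, Car13 and Car1 lie side by side on chromosome 3, with 0 protein-coding genes between neighbours in the order Car13, Car1, Car3, Car2, and all encode cytosolic enzymes. None of the 4 was called. The log2 fold changes of Car2 and Car1 were above zero and those of Car3 and Car13 below it, and that of Car1 was 0.15 with an interval from -0.57 to 0.88. Car2, the fast and widely expressed enzyme, read 10.76, 11.13 and 11.09 in Sox17f/f and 11.46, 11.35 and 11.55 in Sox17ed/ed uteri. Each Sox17ed/ed array lay above each Sox17f/f array, and the log2 fold change of 0.46 (standard error 0.12, 95% interval 0.17 to 0.75) stopped short of the fold threshold, which is 0.485 on the log2 scale. Red cells carry Car2 as well. Of 10 erythrocyte markers 9 had a probe, and Hemgn alone made up 98% to 98.9% of their summed signal, so that sum is not a measure of red cells. Without Hemgn it was 240 to 356 in Sox17f/f and 204 to 412 in Sox17ed/ed uteri. Of the erythrocyte list limma called 0 of the 3 tested, with 1 at an unadjusted p under 0.05 (Alas2, -1.03 on the log2 scale).

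Car13, a cytosolic enzyme found in reproductive tissues, read 7.03, 7.13 and 7.05 in Sox17f/f and 6.60, 6.48 and 6.71 in Sox17ed/ed uteri. The arrays of each genotype were close together and the groups apart. The log2 fold change was -0.47 (standard error 0.08, 95% interval -0.67 to -0.28), just short of the fold threshold, so that Car13 was not called. With normexp background correction the log2 fold change of Car13 was -0.30.

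Car3, the enzyme of low activity that is abundant in adipocytes and slow muscle, read 6.70, 5.81 and 6.08 in Sox17f/f and 4.68, 4.89 and 5.66 in Sox17ed/ed uteri. It had the widest spread between arrays of 1 genotype among the 9 members tested (SD 0.52 in Sox17ed/ed uteri), and Sox17ed/ed replicate 3 lay close to the lowest control. The log2 fold change was -1.12 (standard error 0.32, 95% interval -1.91 to -0.33), which was not called, and the probe was well above background on 2 of the 3 Sox17ed/ed arrays. With normexp background correction the log2 fold change of Car3 was -0.41. Of 12 adipocyte markers, 8 were tested and 1 was called, or 12.5% against 12.5% of all genes tested. The gene called was Dgat2, a triglyceride-synthesising enzyme also found outside fat, at -2.59. The summed signal of the adipocyte list was 17800 to 23300 in Sox17f/f and 5000 to 5360 in Sox17ed/ed uteri, and Dgat2 made up 56.2% to 89.2% of it. Without Dgat2 the sum was 2330 to 2520 in Sox17f/f and 2070 to 2220 in Sox17ed/ed uteri. Lep, Plin1 and Cidec were not well above background on any array, and Adipoq was so on 1 Sox17f/f and 2 Sox17ed/ed arrays. Fabp4, Cidea, Plin4 and Cfd were well above background on all arrays of both genotypes. Of the 8 tested, 6 were below zero, among them Fabp4 (-0.78), Cidea (-0.70) and Plin4 (-0.46). The 2 above zero were Cfd (1.08) and Adipoq (0.95). Of 7 skeletal muscle markers tested, 1 was called higher and 1 lower, 28.6% against 12.5% of all genes tested. The gene called higher, Mb, passed the filter through the Sox17ed/ed arrays alone, with 0 Sox17f/f arrays well above background. The size of its rise is therefore not known. The skeletal muscle list summed to between 9860 and 11300 in Sox17f/f and between 7860 and 10200 in Sox17ed/ed uteri. Without its brightest gene Acta1, it summed to between 3360 and 4270 and between 4310 and 5160. The part of fat or muscle in the Car3 values was not tested.

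Car7, a cytosolic enzyme known best from neurons, read 7.68, 7.88 and 7.88 in Sox17f/f and 7.97, 8.00 and 7.95 in Sox17ed/ed uteri. The groups lay just apart, and the log2 fold change of 0.16 (standard error 0.08, 95% interval -0.03 to 0.35) was not called. Car14, a surface enzyme like Car12, read 6.76, 6.30 and 5.82 in Sox17f/f and 5.81, 5.83 and 6.18 in Sox17ed/ed uteri. The groups of Car14 overlapped, and its log2 fold change was -0.35 (standard error 0.25, 95% interval -0.95 to 0.25). With 1 array left out it lay between -0.60 and -0.12. The surface enzymes therefore had no common direction, since Car12 was called lower, Car9 higher, Car4 by 1 of its probes only, and the interval of Car14 reached to both sides of zero. Car8 had a pair of probes, and neither stood well above background on a single array, so no difference is given.

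Of the 6 carbonic anhydrase genes outside the list, Car10, a related protein without activity, and Car6, the secreted enzyme of saliva, gave signals not well above background on any of the 6 arrays, like those of Car5a. Car1, Car11 and Car15 were tested, and 0 of the 3 were called by limma, with 0 at an unadjusted p under 0.05. The log2 fold change was 0.03 (95% interval -0.20 to 0.25) for Car11, another related protein without activity, and 0.11 (95% interval -0.12 to 0.34) for Car15, a surface enzyme.

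For each called member, the genes most like it were taken as the 5 with the smallest root mean square difference of the 6 array values, each gene centred on its own mean, among 14846 other genes. For Car12 these were Aqp8, a water channel (0.095), Fbxw14, an F-box protein (0.143), Gpx2, a glutathione peroxidase (0.182), Slc2a3, a glucose transporter (0.246), and Tacr1, the receptor of substance P (0.28). Their log2 fold changes lay between -4.07 and -3.54. For Car9 they were Slc22a18 (0.061), F11r, which encodes a tight junction protein, Slc27a3, Rnpep and Ermp1, with log2 fold changes between 0.69 and 0.83. For Car5b they were Robo1, the receptor of Slit proteins (0.0233), Lrrtm1, Ccdc68, Ebi3 and Slc2a8, with log2 fold changes between 0.68 and 0.78. These likenesses rest on 6 arrays in 2 groups, so a gene with a genotype difference of the same size comes out as near.

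The bicarbonate transporters, which carry the ion that carbonic anhydrases make, held 20 listed genes, 19 of them on the array and 15 tested. Of the 15, 1 rose and 1 fell, 13.3% against 12.5% of all genes tested, and their median log2 fold change was -0.14 against -0.002 for all genes. Slc26a6, a chloride and bicarbonate exchanger of apical membranes, was lower by -1.28 on the log2 scale (standard error 0.29, limma adjusted p = 0.0366). This value used 5 arrays, because the spot of Sox17ed/ed replicate 2 was an outlier, and the other probes of Slc26a6, on all 6 arrays, gave -1.28 and -1.50. With the deposited values, which keep that spot, Slc26a6 was at -0.58 and not called. The brightest probe of Slc26a6 read 10.92, 11.43 and 10.44 on the Sox17f/f arrays. This was the order of arrays of Car12, and also that of the summed epithelium markers. Slc4a8, a sodium-driven chloride and bicarbonate exchanger, was higher by 0.57 (standard error 0.12, limma adjusted p = 0.0222), and by 0.38 with normexp, where it was not called. Both calls also depended on single arrays and on the linear model used. Cftr, the anion channel of uterine fluid secretion, had a log2 fold change of -0.55 (limma adjusted p = 0.0717), which did not pass.

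Of the 17 proton and lactate transporters and partners tested of 22 on the array, 2 rose and 4 fell, with a median of 0.07. The called share was 35.3%, against 12.5% of all genes tested, and nothing particular to the list is read from it. The subunits of the vacuolar proton pump went opposite ways, since Atp6v0d2 was higher, at 2.16 (limma adjusted p = 0.0232), whereas Atp6v0a4, the subunit of acid-secreting epithelia, was lower, at -1.53 (limma adjusted p = 0.0153). Atp6v0d2 was well above background on 2 of the 3 Sox17f/f arrays, and its value was 0.92 with normexp. It was no longer called with an ordinary linear model, with the replicate block or without Sox17ed/ed replicate 1 or 3, and Atp6v0a4 no longer with an ordinary linear model. Emb, which brings lactate carriers to the membrane, was lower, at -1.51 (limma adjusted p = 0.000114), as was the lactate carrier Slc16a7, at -0.77 (limma adjusted p = 0.0102), which was at -0.40 and not called with normexp. Atp12a, a proton and potassium pump, was lower, at -0.97 (limma adjusted p = 0.00533). Slc9a3r1, a scaffold of apical transporters, was higher, at 0.87 (limma adjusted p = 0.00522).

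Car9 is a textbook HIF-1 target, so other genes that HIF induces were set beside it. Of 24 tested, 2 rose with Car9 and 4 fell, 25% against 12.5% of all genes tested, and the median log2 fold change was 0.02. Higher were Aldoc, a glycolytic enzyme, at 2.03 (limma adjusted p = 0.00286) and Egln3, an oxygen-sensing hydroxylase, at 1.48 (limma adjusted p = 0.00177). Lower were the glycolytic genes Hk2 at -1.23 (limma adjusted p = 0.000575) and Pfkfb3 at -1.18 (limma adjusted p = 0.00348), and also Ndrg1 at -0.70 and Ankrd37 at -0.54. Ankrd37 was not called with normexp (-0.42) or without Sox17f/f replicate 2 or Sox17ed/ed replicate 3. The called genes went both ways, and the other 18 genes were not called. With the limma adjusted p under 0.05 alone, 10 of the 24 passed, 3 of them higher and 7 lower, against 18.9% of all genes. The part of HIF in the Car9 value was not tested.

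**Figure D3:**
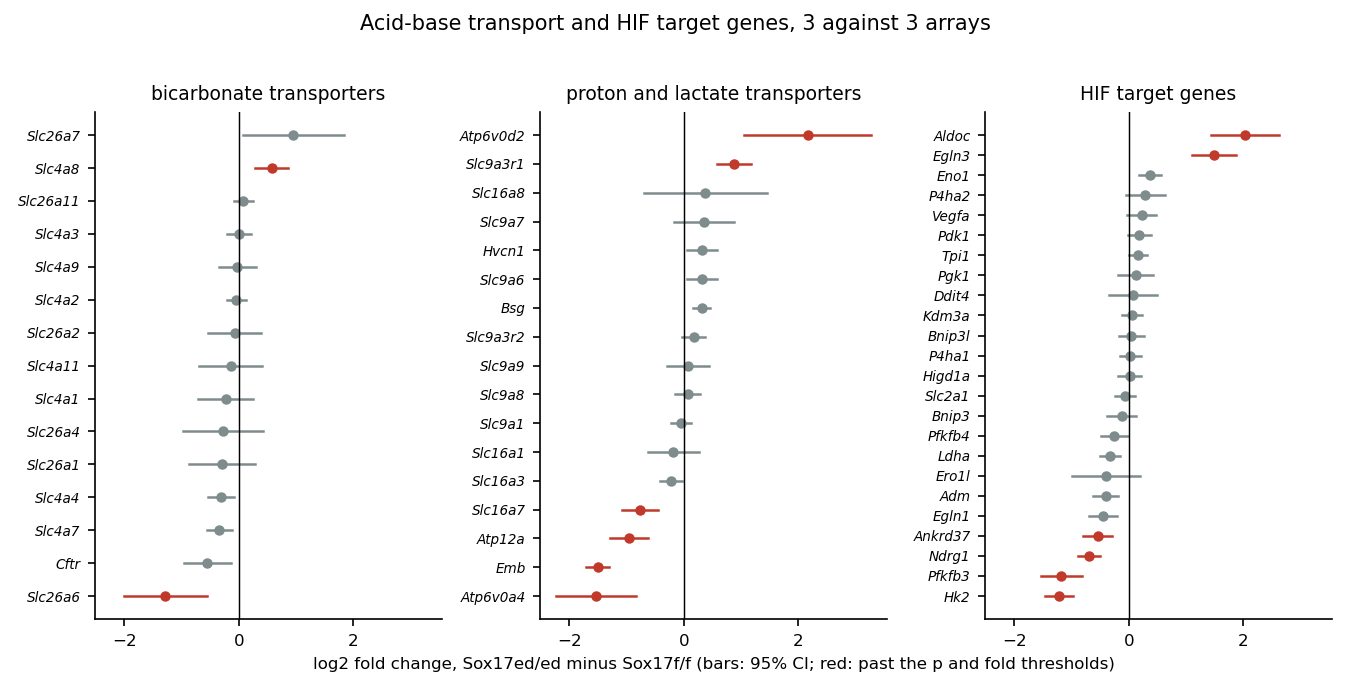
Log2 fold change with its 95% interval (limma, Sox17ed/ed minus Sox17f/f, 3 arrays against 3) of each tested bicarbonate transporter, proton or lactate transporter and HIF target gene; red marks genes past both thresholds. Each panel holds red genes on both sides of zero, from -1.53 for Atp6v0a4 to 2.16 for Atp6v0d2.

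Among the 14 alternative ways of processing the arrays, Car12 was called in all, with a log2 fold change of -3.98 to -3.54, and so was Car9, with 0.57 to 0.90. Car5b was called in 13 of 14. Car7 and Car14 were called in 0. The sign of each of the 9 tested members was the same in every alternative that gave it a value.

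**Figure D4:**
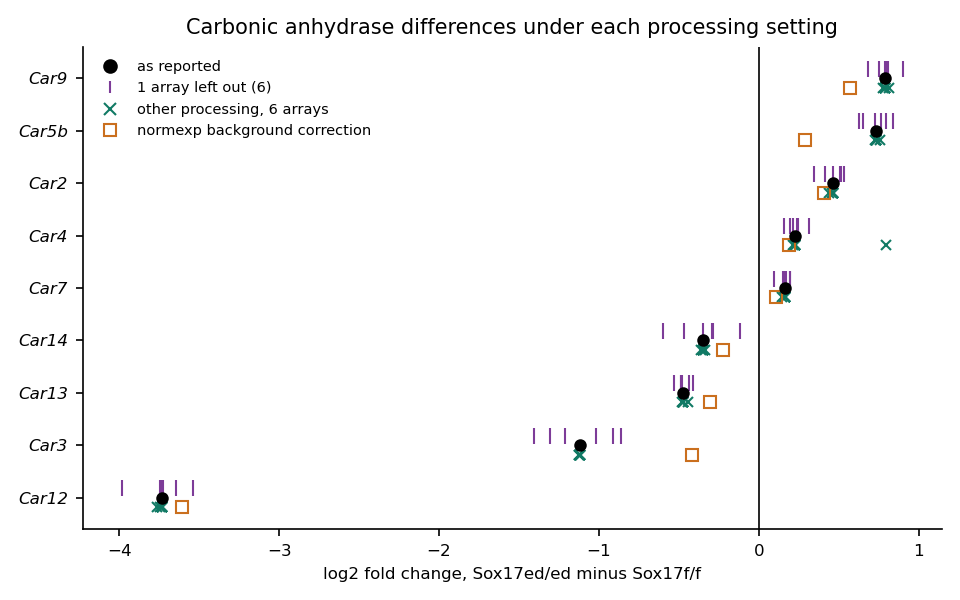
Log2 fold change (Sox17ed/ed minus Sox17f/f) of the 9 tested members as reported (black points), with each array left out in turn (purple ticks), under other processing of all 6 arrays (green crosses) and with normexp background correction (orange squares). Each member stays on 1 side of zero, Car5b and Car3 move furthest towards it with normexp, from 0.73 to 0.29 and from -1.12 to -0.41, and the green cross of Car4 at 0.80 is the mean of its probes.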

How the data were processed

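RNA from whole uteri of 3 Sox17f/f and 3 Sox17ed/ed mice at GD 3.5 was put on Agilent G3 Mouse GE arrays, and samples were grouped by the genotype in the labels. The authors deposited scanner files (62976 spots each), whose headers name Feature Extraction 11.0.1.1, while the submitters' processing notes name Feature Extraction 9.1. The deposited intensity taken was the processed signal, background-subtracted by that software and not normalized between arrays. The deposited flags (other) mark spots well above background and outliers, and 169 to 302 outlier spots per array were left out. The deposited table of processed intensity values was within 0.191% of the mean processed signal.

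Log2 values were quantile normalized between the 6 arrays, as the study's methods state, and replicate spots averaged. The filter kept probes well above background on 3 or more arrays, and each gene was read from its brightest probe. Of 55681 probes, 26582 were matched to a RefSeq gene table of GRCm38.p6. The array design is annotated on another build, so the only coordinates given are those of the promoter windows, on GRCm38.p6. Genotypes were compared with limma 3.58.1 (lmFit, eBayes) in R 4.3.3 over all 14847 genes, with Benjamini-Hochberg adjustment, and thresholds were those of the study's methods. Precision is limited by the number of arrays, and with 3 against 3 the smallest p of an exact permutation test is 0.1. Plots used Python 3.11.15 and matplotlib 3.10.9. The steps were tested on simulated data of 3 against 3 arrays. There 195 of 200 changed genes were recovered, with 53 false calls among 14847 genes.

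The members and the gene lists were chosen with earlier results of these data known. Named were all carbonic anhydrase genes, Sox17, in each transporter and HIF list the called genes (at most 4 per direction), and the 5 genes nearest each called member. Cftr and the cell type markers named were singled out after their values were seen. Alternatives were a shift by the 75th percentile, normexp with an offset of 50, no filter, a filter requiring all 6 arrays, averaging the probes of a gene, the deposited values, an ordinary linear model, the replicate number as a block, and each array left out. Protein sequences were not used here. Replicate numbers are not known to pair the samples.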

Additional observations from a re-analysis of the deposited data

How the results depend on the processing

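The count of 3 members called was 4 with the mean of a gene's probes, 2 with normexp and 3 to 5 with 1 array left out. The 5 came without Sox17ed/ed replicate 3, where Car3 (-1.41) and Car13 were added. Car2 was called only without Sox17f/f replicate 2 (0.53). Slc26a6 was not called without the filter, with the deposited values, with an ordinary linear model or without Sox17f/f replicate 1 or Sox17ed/ed replicate 1 or 3, nor Slc4a8 with normexp, with an ordinary linear model, with the replicate block or without Sox17f/f replicate 3 or Sox17ed/ed replicate 1 or 3. The 2 called bicarbonate transporters became 1 without the filter on low signal, 1 with the deposited values, 0 with an ordinary linear model and 0 to 3 with 1 array left out, being 1 without Sox17f/f replicate 1, 3 without Sox17ed/ed replicate 2, and 0 without Sox17ed/ed replicate 1 or 3, which leaves Slc26a6 on 1 array of that genotype. With the replicate number as a block it was 1. The numbers are not known to pair the samples, since same-numbered samples correlated at 0.0629, -0.114 and -9.52e-05 after removal of the genotype means. The other lists stayed within 1.5 times, at 4 to 7 proton and lactate transporters, 5 to 7 HIF targets and 0 other carbonic anhydrase genes. The sign turned for Car1 with the 75th percentile (-0.0400) and without Sox17f/f replicate 3, in a range of -0.134 to 0.482 with 1 array left out. It turned for Car11 with normexp (-0.0346) and without Sox17f/f replicate 2 or Sox17ed/ed replicate 1, in a range of -0.0541 to 0.0772. Genes called in all ranged from 1370 with an ordinary linear model to 2033 without Sox17f/f replicate 3. Normexp on the mean signal was not run, and normexp on the median signal was chosen after seeing the data. No fit with the slide line as a block could be made, because each line held 1 genotype. Signal near the background limits what can be said of dim probes, among them those of Car1, Car3, Car5b and Car8.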
